A study of Mus musculus with 16 samples.

Results

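Chemokines are small secreted proteins that steer immune cells along gradients, and their receptors are G protein-coupled receptors on the migrating cells. In the gut, a homeostatic set builds and fills lymphoid tissue (Cxcl13 with Cxcr5 for B cell follicles, Ccl19 and Ccl21a with Ccr7 for T cell zones), a mucosal set brings lymphocytes to the epithelium (Ccl20 with Ccr6, Ccl25 with Ccr9, Ccl28 with Ccr10), and an inflammatory set recruits monocytes, granulocytes and effector T cells once it is induced. The genes described here are all those that the arrays name Ccl, Cxcl, Ccr or Cxcr with a number and at most 1 letter, together with Xcl1, Xcr1, Cx3cl1 and Cx3cr1. They were 54 of 36711 genes, 36 ligands and 18 receptors, read by 76 probes.

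An Agilent array with a single dye was hybridised with colon RNA of each of 16 pups at weaning, in order to compare pups born by C-section (CSD) with vaginally delivered pups (VD). All were RjOrl:SWISS mice, an outbred stock. The 8 CSD pups were taken by hysterectomy from mothers 3 and 4 (4 pups each, 2 females and 2 males per litter) and raised by foster mothers, and the 8 VD pups came from mother 5 (5 pups, 2 females and 3 males) and mother 6 (3 males), whose litters had been interchanged with others. Each mother contributed to a single group, so that delivery mode and whatever else the 2 litters of a mode had in common, such as the surgery of the dam, cannot be told apart. Each of the 2 slides held 4 CSD and 4 VD arrays. Between 58.7% and 64.9% of the non-control spots lay well above background per array, and no spot was saturated. All 9 genes on a list for colon epithelium were above background on all 16 arrays, while of 9 genes for small intestinal epithelium 4 were above it on all arrays and 3 (Apoa4, Lct and Sis) on none.

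Values are log2 intensities after background correction and quantile normalization, so that a difference of 1 is a doubling. They compare pups for a given gene and do not rank genes, since every probe has its own brightness. A gene counted as detected on an array where at least 1 of its probes was well above background. By this measure 37 of the 54 genes (26 ligands and 11 receptors) were detected on all 16 arrays, 10 on some and 7 on none. The 7 were Ccl22, Ccl26, Cxcl3, Cxcl15, Cxcl17, Cxcr1 and Xcr1, for which no fold is given. Among the ligands detected on some arrays only were Ccl3 (4 CSD and 1 VD arrays), Cxcl5 (0 and 1) and Cxcl2 (1 and 0), which attract monocytes and neutrophils. Cxcr2, the neutrophil receptor for Cxcl1, Cxcl2 and Cxcl5, was detected on 2 arrays of each group. All 7 homeostatic lymphoid genes and all 5 mucosal homing receptors were detected on all 16 arrays, as were 15 of 26 inflammatory genes.

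The bases in front of a few of these genes are printed to show where the binding motif of NF-kappa B (the kappa B consensus) or the interferon-stimulated response element (ISRE, read as GAAA, any 2 bases, then GAAA) occurs. Each line holds the 250 bases before a RefSeq transcription start of GRCm38.p6, written 5′ to 3′ on the gene's strand, and the capitals mark matches to either motif on either strand. Ccr6 and Ccl20 are the receptor and ligand with the largest differences in the reported fit. Cxcl1 and Cxcl10 stand for induced inflammatory ligands, and Ccl19 and Cxcl13 for homeostatic lymphoid ligands.
Ccr6 (chr17:8242276-8242525, + strand): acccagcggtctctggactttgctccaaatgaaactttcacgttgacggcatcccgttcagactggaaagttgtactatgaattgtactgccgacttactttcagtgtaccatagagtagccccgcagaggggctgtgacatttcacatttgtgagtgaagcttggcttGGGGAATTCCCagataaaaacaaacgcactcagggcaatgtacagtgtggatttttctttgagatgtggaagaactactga
Ccl20 (chr1:83116516-83116765, + strand): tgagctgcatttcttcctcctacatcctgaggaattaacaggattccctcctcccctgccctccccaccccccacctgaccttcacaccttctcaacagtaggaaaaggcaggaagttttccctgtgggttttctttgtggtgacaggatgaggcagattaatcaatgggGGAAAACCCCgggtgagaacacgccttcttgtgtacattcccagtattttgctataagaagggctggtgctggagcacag
Cxcl1 (chr5:90890995-90891244, + strand): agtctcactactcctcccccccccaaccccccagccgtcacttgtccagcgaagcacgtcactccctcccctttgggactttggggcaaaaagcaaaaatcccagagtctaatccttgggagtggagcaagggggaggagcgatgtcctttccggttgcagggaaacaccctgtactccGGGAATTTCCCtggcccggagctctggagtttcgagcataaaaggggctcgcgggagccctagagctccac
Cxcl10 (chr5:92348890-92349139, - strand): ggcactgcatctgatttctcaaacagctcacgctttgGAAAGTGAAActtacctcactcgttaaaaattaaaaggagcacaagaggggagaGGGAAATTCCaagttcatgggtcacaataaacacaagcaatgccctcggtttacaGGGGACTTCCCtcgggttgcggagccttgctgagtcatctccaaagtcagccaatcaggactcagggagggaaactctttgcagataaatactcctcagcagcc
Ccl19 (chr4:42756366-42756615, - strand): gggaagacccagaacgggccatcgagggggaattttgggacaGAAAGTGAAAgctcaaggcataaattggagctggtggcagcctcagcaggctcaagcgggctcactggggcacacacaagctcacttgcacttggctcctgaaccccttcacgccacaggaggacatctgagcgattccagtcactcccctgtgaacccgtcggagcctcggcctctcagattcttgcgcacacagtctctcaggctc
Cxcl13 (chr5:95956689-95956938, + strand): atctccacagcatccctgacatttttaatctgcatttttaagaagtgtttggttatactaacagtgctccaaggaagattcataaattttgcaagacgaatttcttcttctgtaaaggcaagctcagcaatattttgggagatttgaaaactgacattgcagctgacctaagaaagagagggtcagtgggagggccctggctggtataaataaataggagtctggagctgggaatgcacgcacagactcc

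Of the 54 genes, 39 had such windows in the RefSeq table. The kappa B consensus occurred in at least 1 window of 10 of them (Ccl1, Ccl9, Ccl20, Ccr1, Ccr3, Ccr6, Cxcl1, Cxcl2, Cxcl3 and Cxcl10), against 8.23% of all 27025 genes in the table. The ISRE occurred in 3 of the 39 (Ccl19, Cxcl10 and Cxcl14), against 3.46% of all genes. In Ccr6 the matches lay 81 to 71 bases before the start shown and overlapped each other. The other Ccr6 start in the table, whose window is chr17:8235793-8236042, had none. In Ccl20 the match lay 80 to 71 bases before the start. Cxcl10 carried both motifs. Neither motif was in the window of Cxcl13. A match is a description of the sequence and no sign of use in the colon.

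The comparison of CSD with VD pups asked whether mode of birth left a mark on these genes at weaning. Only Ccr6 passed the test, and it was lower in CSD pups. Nearly all other receptors detected on all arrays leaned the same way, as did all of the homeostatic lymphoid genes, while the inflammatory ligands lay on both sides. Limma, fitted with terms for birth mode and sex and with mother as a random block, called 1 of the 54 genes at a Benjamini-Hochberg adjusted p-value under 0.05 over all genes, and 460 of 36711 genes (1.25%) passed the same threshold. At an adjusted p-value under 0.1 there were 5 of 54 (Ccr6, Ccl12, Ccr10, Ccr2 and Ccr9) against 3.07% of all genes. At an unadjusted p-value under 0.05 there were 15 of 54 against 14.5% of all genes, and 13 of the 54 were past it and lower in CSD pups, against 7.09% of all genes. For none of the 54 were the 2 groups free of overlap, whereas 0.49% of all genes were.

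**Figure D1:**
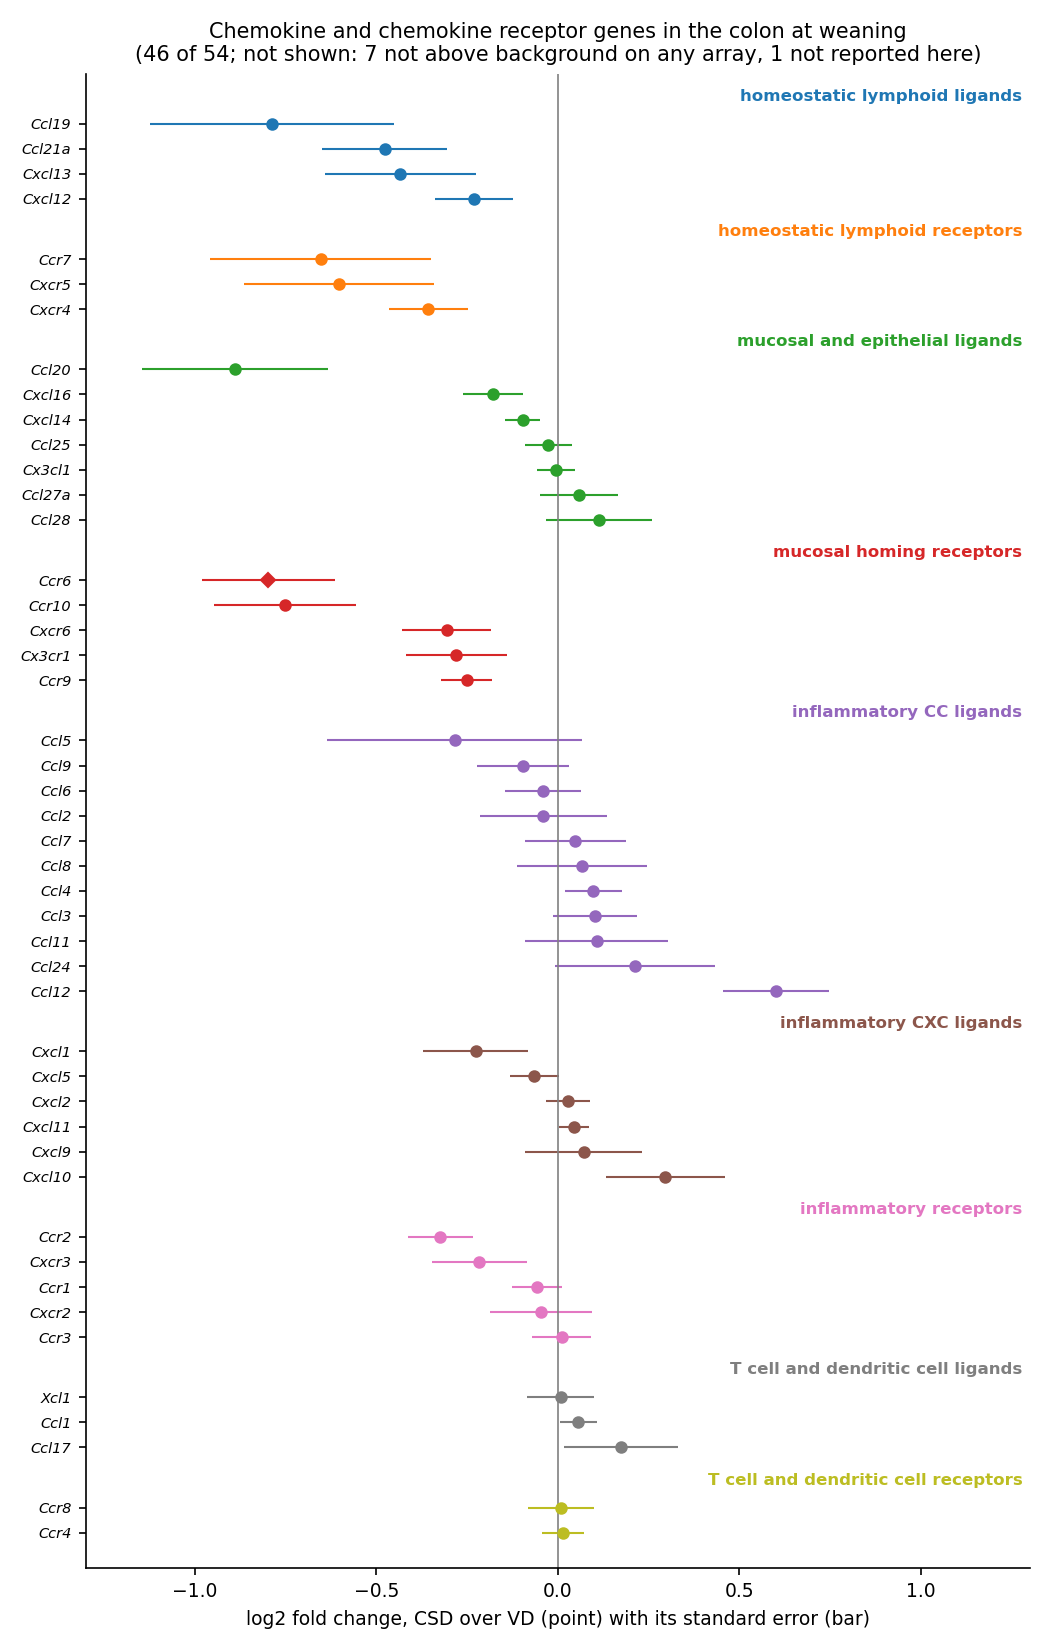
Log2 fold change of CSD over VD pups (x axis, points) with its standard error (bars) for 46 of the 47 genes detected on at least 1 array, grouped by role (colours), from the limma fit of 8 CSD and 8 VD pups. The diamond marks Ccr6, the gene with an adjusted p-value under 0.05, and all points of the homeostatic lymphoid ligands and receptors and of the mucosal homing receptors lie left of 0.

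Ccr6 is the receptor of Ccl20 and sits on B cells, on Th17 and regulatory T cells and on group 3 innate lymphoid cells, where it takes part in the forming of isolated lymphoid follicles and of IgA responses. Its log2 intensity ran from 9.82 to 10.60 (median 9.95) in CSD pups and from 10.01 to 11.35 (median 11.02) in VD pups. All 8 CSD pups lay under the median of the VD pups and 5 lay under every VD pup, while VD pup 8 lay in the range of the CSD pups. The fitted difference was -0.80 ± 0.18 (SE, n = 8 per group, limma), with a 95% confidence interval from -1.19 to -0.41 and an adjusted p-value of 0.0465. This is 42.5% lower in CSD pups. An exact two-sided permutation of the group labels, which ignores litters and sex, gave p = 0.00155. Litter means were 10.08 and 10.12 for the CSD mothers 3 and 4, and 11.07 and 10.61 for the VD mothers 5 and 6. Ccr6 has 1 probe on the array (mm9 chr17:8449933-8449992, + strand).

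The call of Ccr6 stands close to the threshold, and on simulated data the same fit made more false calls than its threshold allows. With the slide as a further fixed effect the difference was -0.79 with an adjusted p-value of 0.0586, on slide 1 alone it was -0.995 (adjusted p-value 0.323) and on slide 2 alone -0.60 (adjusted p-value 0.565), each with 4 pups per group. With the 4 litter means as samples it was -0.75 (adjusted p-value 0.306). The random block for the mother had a consensus correlation of 0.0152, so that pups counted almost as independent samples. It stayed lower in CSD pups in all 38 alternative fits and passed the threshold in 9 of them. Leaving out any of 13 of the 16 pups ended the call, the exceptions being VD pup 7, VD pup 8 and CSD pup 9. Without the litter of mother 5 the difference shrank to -0.45 (adjusted p-value 0.492), and without the litter of mother 6 it was -0.97 (adjusted p-value 0.00197).

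Ccl20, the ligand of Ccr6, is made by the epithelium over lymphoid follicles and by inflamed epithelium. It ranged from 8.93 to 10.61 (median 9.89) in CSD pups and from 9.77 to 11.19 (median 10.81) in VD pups. All 8 CSD pups lay under the VD median, and 3 lay under every VD pup. The fitted difference of -0.89 ± 0.26 (SE) was the largest in size among the 54 genes, but its adjusted p-value was 0.103. This rank depended on the fit, since Ccr10 reached -1.07 and Ccl20 only -0.95 in the alternatives other than leave-outs. The pups of mother 5 had the highest Ccl20 values (litter mean 10.97), and those of mother 6 (10.10) lay closer to the CSD litters (9.85 and 9.73). The VD litters differed by 0.87 ± 0.32 (SE, mother 5 over mother 6, adjusted p-value 0.266), about as much as the groups did. Ccl20 passed the threshold without VD pup 7 (-0.999, adjusted p-value 0.0493) and without the litter of mother 6 (-1.18, adjusted p-value 0.00764), and without that of mother 5 the difference was -0.35 (adjusted p-value 0.704).

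The other receptors that bring cells to mucosal surfaces were lower in CSD pups as well, without passing the test. Ccr10, carried by IgA plasma cells and attracted by Ccl28, ranged from 6.89 to 8.12 (median 7.54) in CSD pups and from 7.76 to 8.79 (median 8.33) in VD pups. All 8 CSD pups lay under the VD median, and the difference was -0.75 ± 0.20 (SE, adjusted p-value 0.0744). Ccr9, the small intestinal homing receptor of T cells, ranged from 6.37 to 6.78 (median 6.55) in CSD pups and from 6.67 to 7.12 (median 6.85) in VD pups (-0.25 ± 0.07, adjusted p-value 0.0943). Of its 2 probes, one was above background on all arrays and differed by -0.45 in group means, and the other was above it on none. Cxcr6, found on innate lymphoid cells and tissue-resident T cells, ranged from 8.39 to 9.11 (median 8.80) and from 8.84 to 9.51 (median 9.04), with a difference of -0.31 ± 0.12 (adjusted p-value 0.244). Cx3cr1, the fractalkine receptor of gut macrophages, differed by -0.28 ± 0.14 (adjusted p-value 0.382). In all 5 mucosal homing receptors both CSD litter means lay under both VD litter means, which was so for 20.3% of all genes. The median difference of these 5 was -0.31, beside 0.0029 over all genes, and it was -0.57 on processed signals under both scalings.

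No ligand of these receptors was called. Beside Ccl20, only Cxcl16 had an unadjusted p-value under 0.05 among the 9 mucosal and epithelial ligands (-0.18 ± 0.08, adjusted p-value 0.339). Over all genes 14.5% had one. Cxcl16, a transmembrane chemokine that binds Cxcr6, ranged from 8.45 to 9.09 (median 8.78) in CSD pups and from 8.80 to 9.18 (median 8.96) in VD pups. Ccl25, the ligand of Ccr9 and a chemokine of the small intestine, had a median of 6.90 in CSD and 6.87 in VD pups, and its 95% confidence interval of the difference ran from -0.16 to 0.11. Its probes differed in sign, the brightest by 0.08 and the next by -0.17. The average also holds a probe above background on 1 CSD array only and another above it on none. Ccl28, the colon ligand of Ccr10, had medians of 10.23 and 9.94, with an interval from -0.20 to 0.42. Cx3cl1, the ligand of Cx3cr1, had medians of 8.58 and 8.59, with an interval from -0.12 to 0.11. These average a probe above background on all arrays (group means 10.95 in CSD and 10.97 in VD pups) and one above it on none (6.24 in both). With the dim probes filtered out the standard error of Cx3cl1 was 0.09, against 0.05 as reported, so that the interval given is narrow. Of the 7 ligands detected on all arrays 5 were lower and 2 higher (median difference -0.03), and Cxcl15 and Cxcl17 were not detected.

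**Figure D2:**
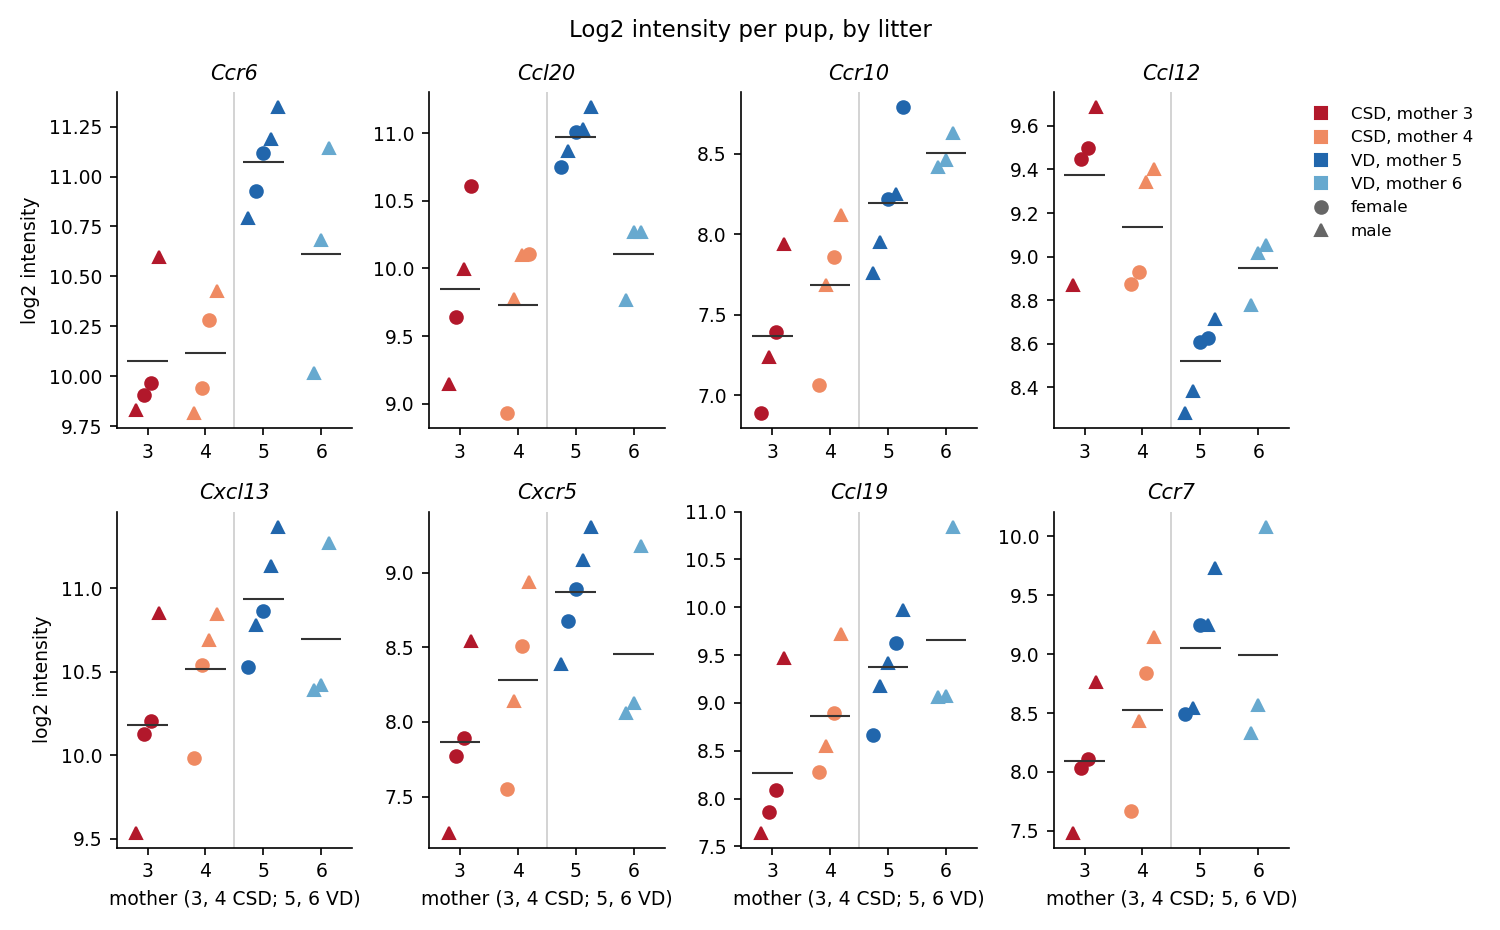
Log2 intensity (y axis) of 8 genes in each pup, by biological mother (x axis), with CSD litters in red tones and VD litters in blue tones, circles for females, triangles for males and a line at each litter mean. The litter of mother 5 has the highest mean for Ccr6 and Ccl20 and the lowest for Ccl12, and in the lower panels CSD pup 8 of mother 3 is the lowest pup for Cxcl13, Cxcr5, Ccl19 and Ccr7.

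The homeostatic lymphoid genes were lower in CSD pups without exception, and none passed the test. Ccl21a, which is displayed by lymphatic and high endothelial vessels, ranged from 12.26 to 13.41 (median 13.04) in CSD pups and from 13.19 to 13.85 (median 13.35) in VD pups. Its difference was -0.48 ± 0.17 (SE, adjusted p-value 0.192), and 5 CSD pups lay under every VD pup. Ccl19, made by the stroma of T cell zones, ranged from 7.64 to 9.72 (median 8.42) and from 8.66 to 10.84 (median 9.29), a wide spread in both groups, and differed by -0.79 ± 0.34 (adjusted p-value 0.286). Their common receptor Ccr7, which brings naive T cells and dendritic cells into these zones, ranged from 7.48 to 9.15 (median 8.27) and from 8.33 to 10.08 (median 8.91) and differed by -0.65 ± 0.31 (adjusted p-value 0.341). Both Ccr7 probes were lower in CSD pups. The difference of Ccl21a ran from -0.80 to -0.17 with pups or litters left out. For Ccl19 it then ran from -1.09 to -0.49, and for Ccr7 from -0.90 to -0.42.

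For the B cell follicle, Cxcl13 ranged from 9.54 to 10.85 (median 10.37) in CSD pups and from 10.39 to 11.37 (median 10.82) in VD pups, with a difference of -0.43 ± 0.21 (SE, adjusted p-value 0.353). Its receptor Cxcr5, on B cells and follicular helper T cells, ranged from 7.26 to 8.93 (median 8.01) and from 8.06 to 9.31 (median 8.78), with a difference of -0.60 ± 0.26 (adjusted p-value 0.294). The groups overlapped in both, 4 CSD pups lying under every VD pup. Leaving out pups or litters gave differences from -0.63 to -0.21 for Cxcl13 and from -0.86 to -0.24 for Cxcr5. Neither gene was called in any of these fits. Cxcr4, the receptor of Cxcl12 on nearly all leukocytes, ranged from 6.69 to 7.20 (median 6.99) and from 7.02 to 7.71 (median 7.30), and all 8 CSD pups lay under the VD median (-0.36 ± 0.11, adjusted p-value 0.121). This is the average of a probe above background on all arrays, with a difference of -0.64 in group means, and of one above it on 0 CSD and 1 VD arrays, with a difference of -0.14. Without the litter of mother 5 Cxcr4 differed by -0.20 (adjusted p-value 0.492), and without that of mother 6 by -0.45 (adjusted p-value 0.0191).

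Cxcl12, a stromal chemokine that retains leukocytes in tissue, differed by -0.23 ± 0.11 (SE, adjusted p-value 0.341), and its 2 probes did not give the same picture. The probe at mm9 chr6:117131227-117131286 ranged from 11.43 to 12.10 (median 11.85) in CSD pups and from 11.996 to 12.44 (median 12.26) in VD pups. The probe at chr6:117125026-117125085 ranged from 11.66 to 12.55 (median 12.14) and from 12.04 to 12.30 (median 12.21). The group means differed by -0.44 on the first and by -0.06 on the second, and the reported test was run on their average. In the alternative fits other than leave-outs, among them that with the brightest probe per gene, the Cxcl12 difference ran from -0.27 to -0.06. It was not called in any of them.

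Across these 7 genes, 6 had an unadjusted p-value under 0.05, against 14.5% of all genes, 0 were called, and the median difference was -0.48. Both CSD litter means lay under both VD litter means in all 7, against 20.3% of all genes. On slide 1 alone the median was -0.47 and on slide 2 alone -0.48. It fell to -0.24 without the litter of mother 5 and to -0.32 without that of mother 3, and was -0.80 without that of mother 4. CSD pup 8 was the lowest of the 16 pups in 6 of the 7 genes and VD pup 6 the highest in 4, and without CSD pup 8 the median was -0.36. Since whole colon was measured, fewer cells of a type and less RNA per cell cannot be told apart, here and in every result on these genes.

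The inflammatory ligands and receptors lay on both sides of 0, and 0 of these 26 genes were called. Counting those detected on all arrays, 5 of 9 CC ligands and 3 of 4 CXC ligands were higher in CSD pups, and both receptors, Ccr2 and Cxcr3, were lower. Over these 15 genes 8 were higher and 7 lower, with Cxcl11, whose probes may not measure its transcript alone, among the former. Of the 26 genes 3 had unadjusted p-values under 0.05, against 14.5% of all genes. Ccl12, a ligand of Ccr2 that attracts monocytes in mice, stood out on the higher side. It ranged from 8.87 to 9.69 (median 9.37) in CSD pups and from 8.28 to 9.05 (median 8.67) in VD pups, no CSD pup lay under the VD median and 5 lay above every VD pup. The difference was 0.60 ± 0.15 (SE), or 1.52-fold, with an adjusted p-value of 0.059. Litter means were 9.38 and 9.14 for CSD and 8.52 and 8.95 for VD, so that here too the litter of mother 5 was farthest from the CSD litters. Without the litter of mother 5 the difference was 0.38 (adjusted p-value 0.463), and without that of mother 6 it was 0.74 (adjusted p-value 0.00821). Ccr2, the receptor of Ccl2 and Ccl12 on monocytes, leaned the opposite way, from 7.38 to 8.13 (median 7.85) in CSD pups and from 7.90 to 8.37 (median 8.17) in VD pups (-0.32 ± 0.09, adjusted p-value 0.09). The third gene, the eosinophil ligand Ccl26, was not above background on any array (log2 intensities of 5.99 to 6.17 in CSD pups and 5.91 to 6.08 in VD pups).

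The best known inflammatory ligands did not pass the test. Their intervals, like those of the mucosal ligands above, count pups almost as independent samples (consensus correlation 0.0152). With 2 litters per mode they hardly hold the spread between litters, so that they do not bound an effect of delivery mode. Ccl2, the main monocyte attractant, had medians of 8.88 in CSD and 8.82 in VD pups, with a 95% confidence interval of the difference from -0.41 to 0.33. Ccl11, the eosinophil attractant eotaxin, had medians of 10.88 and 10.50 (interval -0.31 to 0.52), and Ccl5, released by activated T cells, had medians of 10.27 and 10.66 (interval -1.03 to 0.46). Cxcl1, a neutrophil attractant, had medians of 6.99 and 7.11 (interval -0.53 to 0.08). Cxcl10, induced by interferon, ranged from 7.003 to 8.46 (median 7.99) in CSD pups and from 7.28 to 7.89 (median 7.65) in VD pups, and 6 CSD pups lay above every VD pup while CSD pup 2 lay below all of them (0.30 ± 0.16, adjusted p-value 0.437). Its probe above background on all arrays differed by 0.50 in group means, and the other, above it on 1 CSD array, by 0.09. Cxcl11, another interferon-induced ligand, differed by 0.04 ± 0.04 (SE). Its probes averaged 13.31 and 17.92 in CSD pups, and the brighter shares a run of 20 bases with promoter windows of 21 other genes, whereas no probe of the other genes here shares one with more than 1. Transcripts were not searched, so that this does not show the other probes to be specific.

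By kind of molecule, and over genes detected on all arrays, 10 of 11 receptors and 14 of 26 ligands were lower in CSD pups. Both CSD litter means lay under both VD litter means in 10 of these receptors and above them in 0, and in 7 of these ligands against 4. Over all genes these shares were 20.3% and 21.7%. The median difference was -0.32 for these receptors and -0.02 for these ligands. These directions cannot be counted as independent of each other, since the same cells can carry several receptors. The part of shared cells in them was not tested.

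Many of these genes lie in clusters. In the receptor cluster on chromosome 9 (mm9 chr9:123680935-124046639), Ccr9, Cxcr6 and Ccr2 had unadjusted p-values under 0.05 and were lower in CSD pups, while Ccr1 and Ccr3 differed by -0.06 and 0.01 and Xcr1 was not detected. In the CC ligand cluster on chromosome 11 (chr11:81850650-83478111), 1 of 11 genes had an unadjusted p-value under 0.05, against 14.5% of all genes, and this was Ccl12. Its neighbours Ccl2, Ccl7, Ccl11 and Ccl8 differed by -0.04, 0.05, 0.11 and 0.07. In the CXC ligand cluster on chromosome 5 (chr5:91190490-92788699), 0 of 8 genes had an unadjusted p-value under 0.05. Ccl21a and Ccl19, neighbours on chromosome 4 by probe position, were both lower, and Ccl27a, 511166 bases from Ccl21a, differed by 0.06. The Ccl19 probe was placed on the + strand of mm9, whereas the RefSeq start printed above is on the - strand of GRCm38.p6. Its place in this region is therefore uncertain.

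Ligands and receptors were then compared across the 16 pups, in 20 known pairs. A ligand and its receptor went up and down together in 7 pairs after adjustment over the 20, and the tightest were those of lymphoid tissue. Cxcl13 and Cxcr5 had a Pearson r of 0.95 (Spearman rho 0.95; two-sided permutation p = 1e-05 for each, the smallest that 100000 resamples can give; adjusted p = 1e-04 and 2e-04). Ccl19 and Ccr7 had r = 0.94 (permutation p = 1e-05, adjusted p = 1e-04) and rho = 0.91 (permutation p = 3e-05, adjusted p = 3e-04). By r, both pairs passed inside each group and with litter means subtracted. By rho they did so too, except for Ccl19 and Ccr7 inside VD pups (rho 0.86, adjusted permutation p = 0.107). For Cxcl13 and Cxcr5, r was 0.93 in CSD pups and 0.93 in VD pups, and it was 0.92 with litter means subtracted. For Ccl19 and Ccr7 these values were 0.91, 0.93 and 0.93. With litter means subtracted, the permutation moved values across litters and did not count the means taken off. Its p-values tend to be too small, here and below. Without the 2 pups farthest from the ligand's median, r was 0.92 and 0.89. The lowest pups were the same in both pairs, CSD pups 8, 2, 3 and 5, and the highest were VD pups 6 and 11.

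**Figure D3:**
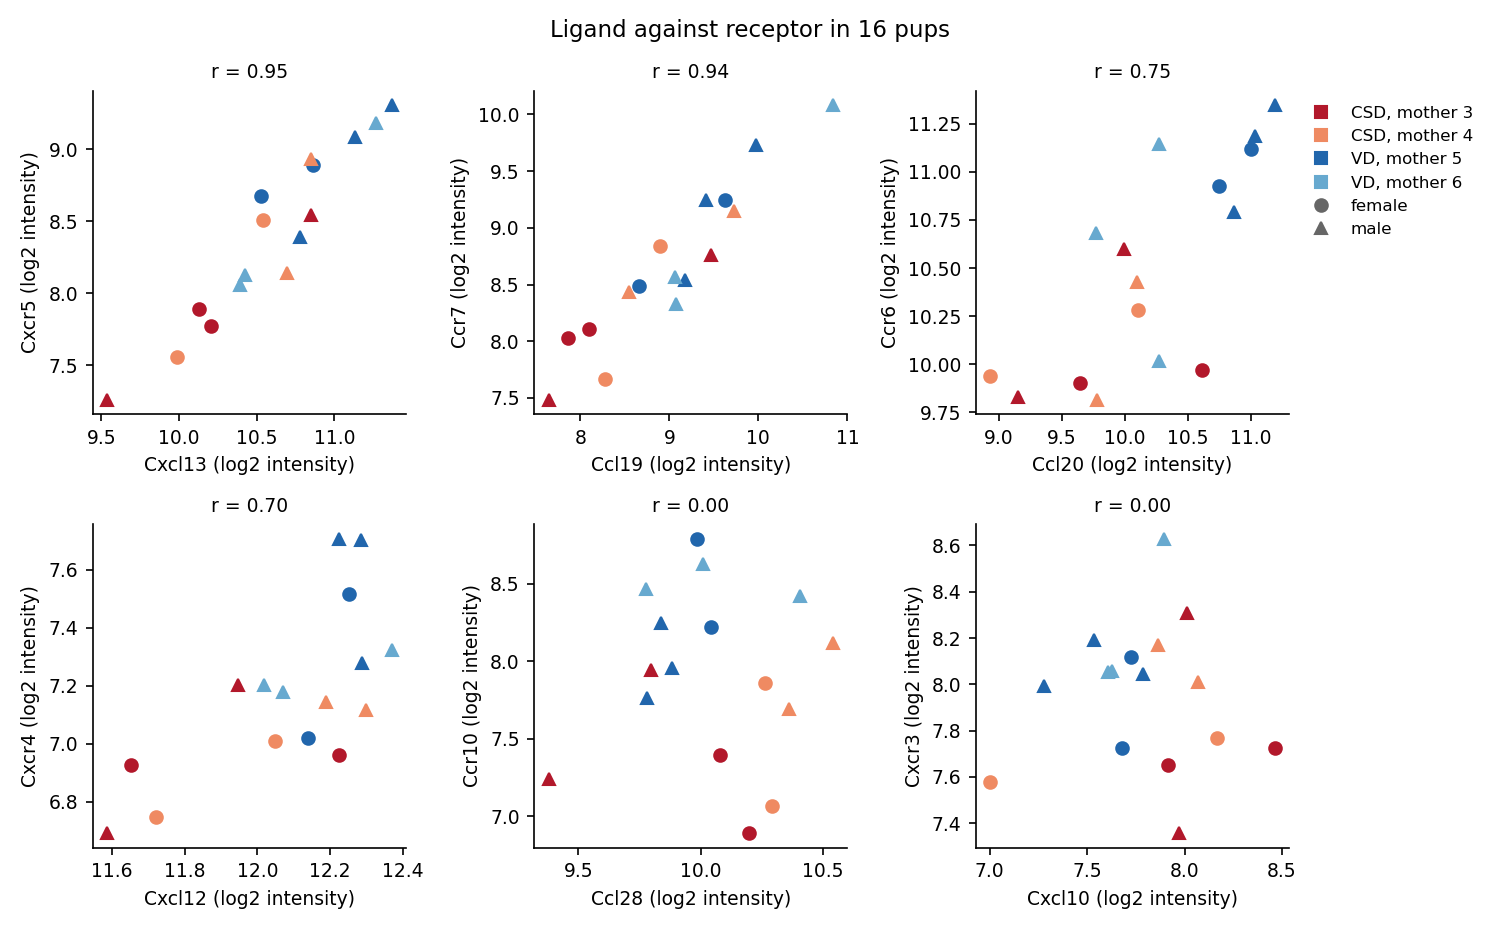
Log2 intensity of a ligand (x axis) against that of its receptor (y axis) in 16 pups for 6 pairs, coloured by mother (CSD in red tones, VD in blue tones), with circles for females and triangles for males and Pearson's r above each panel. Cxcl13 with Cxcr5 (r = 0.95) and Ccl19 with Ccr7 (r = 0.94) form narrow bands that hold pups of all 4 litters, whereas Ccl28 with Ccr10 and Cxcl10 with Cxcr3 scatter without a trend.

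The other 5 pairs were looser, and several did not hold inside the groups or without the most extreme pups. Ccl20 and Ccr6 had r = 0.75 (rho 0.77, adjusted permutation p = 0.0058 and 0.00453). Inside the groups r was 0.44 in CSD pups and 0.58 in VD pups, and it was 0.33 with litter means subtracted, which did not pass. Without CSD pups 8 and 2 it was 0.69. Ccl21a and Ccr7 had r = 0.75 (rho 0.71, adjusted permutation p = 0.0052 and 0.0146), with 0.55 in CSD and 0.88 in VD pups. With litter means subtracted r was 0.65 (adjusted permutation p = 0.0322, and 0.0501 by rho). Without CSD pups 8 and 3 r was 0.71 and passed, while rho of 0.60 did not (adjusted permutation p = 0.135). Cxcl16 and Cxcr6 had r = 0.71 (rho 0.65, adjusted permutation p = 0.00827 and 0.0278), which came to 0.80 in CSD pups, 0.30 in VD pups and 0.64 with litter means subtracted (adjusted permutation p = 0.0322). Without VD pup 4 and CSD pup 2 it was 0.40 (rho 0.47) and no longer passed. Cxcl12 and Cxcr4 had r = 0.70 (rho 0.66, adjusted permutation p = 0.00827 and 0.0256), with 0.73 in CSD and 0.50 in VD pups, and it did not pass with litter means subtracted (0.54, although rho of 0.63 did, adjusted permutation p = 0.0381) or without CSD pups 8 and 3 (0.59). Cxcl9 and Cxcr3, the interferon-induced ligand and the Th1 receptor, had r = 0.66 (rho 0.61, adjusted permutation p = 0.0155 and 0.0397), with 0.61 in CSD and 0.89 in VD pups, 0.70 with litter means subtracted (adjusted permutation p = 0.0181) and 0.46 without CSD pup 6 and VD pup 6, where it no longer passed. The pooled calls of the last 3 pairs thus rest on the pups left out, as does that of Ccl21a and Ccr7 by rho. Leaving out the extremes of a ligand also narrows its range. No relation was detected for Ccl28 and Ccr10 (r = -0.00186), Ccl25 and Ccr9 (r = -0.02) or Cxcl10 and Cxcr3 (r = 0.00178), each with an adjusted permutation p of 0.995. The pups of a litter share their mother, so that 16 pups carry less information than 16 independent animals.

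Genes that act with the chemokines were counted from lists by role. None of them passed the test. In the lymphotoxin and alternative NF-kappa B pathway, which induces the homeostatic ligands in stroma, 12 of 16 genes were lower and 4 higher in CSD pups. Of the 16 genes 6 were lower at an unadjusted p-value under 0.05, against 7.09% of all genes. Lta, the secreted lymphotoxin, differed by -0.35 ± 0.11 (SE, adjusted p-value 0.125), and Tnfsf11, encoding RANKL, was detected on 3 CSD and 8 VD arrays. Ltbr, the receptor and the brightest gene of the list, averaged 13.43 in CSD and 13.40 in VD pups. Of 28 genes of chemokine signal transduction 21 were lower and 7 higher. Vav1, an exchange factor of leukocytes, differed by -0.37 ± 0.11 (adjusted p-value 0.101), Arrb1, a beta-arrestin that ends receptor signalling, by -0.16 ± 0.05 (adjusted p-value 0.126), and Gnai2, the brightest, averaged 13.04 and 13.07.

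Among 11 atypical receptors and chemokine binding proteins 7 were lower and 4 higher. Ackr2, a scavenger of inflammatory CC chemokines, differed by 0.21 ± 0.07 (SE, adjusted p-value 0.131), and Ackr1, the chemokine carrier of venules, by -0.33 ± 0.11 (adjusted p-value 0.178). Pf4, the brightest of that list, averaged 11.83 in CSD and 12.05 in VD pups. Of 15 cytokines and factors that induce inflammatory chemokines, 6 (Csf2, Ifng, Il1a, Il6, Il17a and Il17f) were not detected on any array. Il1b, detected on all arrays, differed by -0.27 ± 0.14 (adjusted p-value 0.385), and Nfkbia, the brightest, averaged 13.44 and 13.46.

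Markers of the lymphocytes that carry many of these receptors leaned the same way. Over all genes 7.09% were lower in CSD pups at an unadjusted p-value under 0.05. All 11 B cell markers had lower values in CSD pups (median difference -0.48), 7 of them at an unadjusted p-value under 0.05, and 0 were called. Their summed level (log2 of the summed intensities) ran from 11.22 to 13.38 (median 11.999) in CSD pups and from 12.15 to 13.43 (median 12.83) in VD pups. Fcer2a (-0.57 ± 0.15, adjusted p-value 0.075) and Cd79a (-0.48 ± 0.14, adjusted p-value 0.0993) had the smallest p-values, Cd79b was the brightest (10.87 in CSD and 11.61 in VD pups), and none of the list was below background on all arrays. All 10 T cell markers were lower as well, 4 of them at an unadjusted p-value under 0.05 and 0 called, with a median of -0.36 and summed levels from 10.99 to 12.11 (median 11.43) against 11.58 to 13.27 (median 12.06). Cd2 was both the brightest and the lowest in p (-0.77 ± 0.26, adjusted p-value 0.162), followed by Cd6 (-0.78 ± 0.28, adjusted p-value 0.192). No T cell marker was below background on all arrays either. CSD pup 8 had the lowest sum of both lists and the highest sum of the macrophage, neutrophil and epithelial lists. The part of these markers, and of the dendritic cell and stromal markers described next, in the lower receptor and homeostatic ligand values was not tested.

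**Figure D4:**
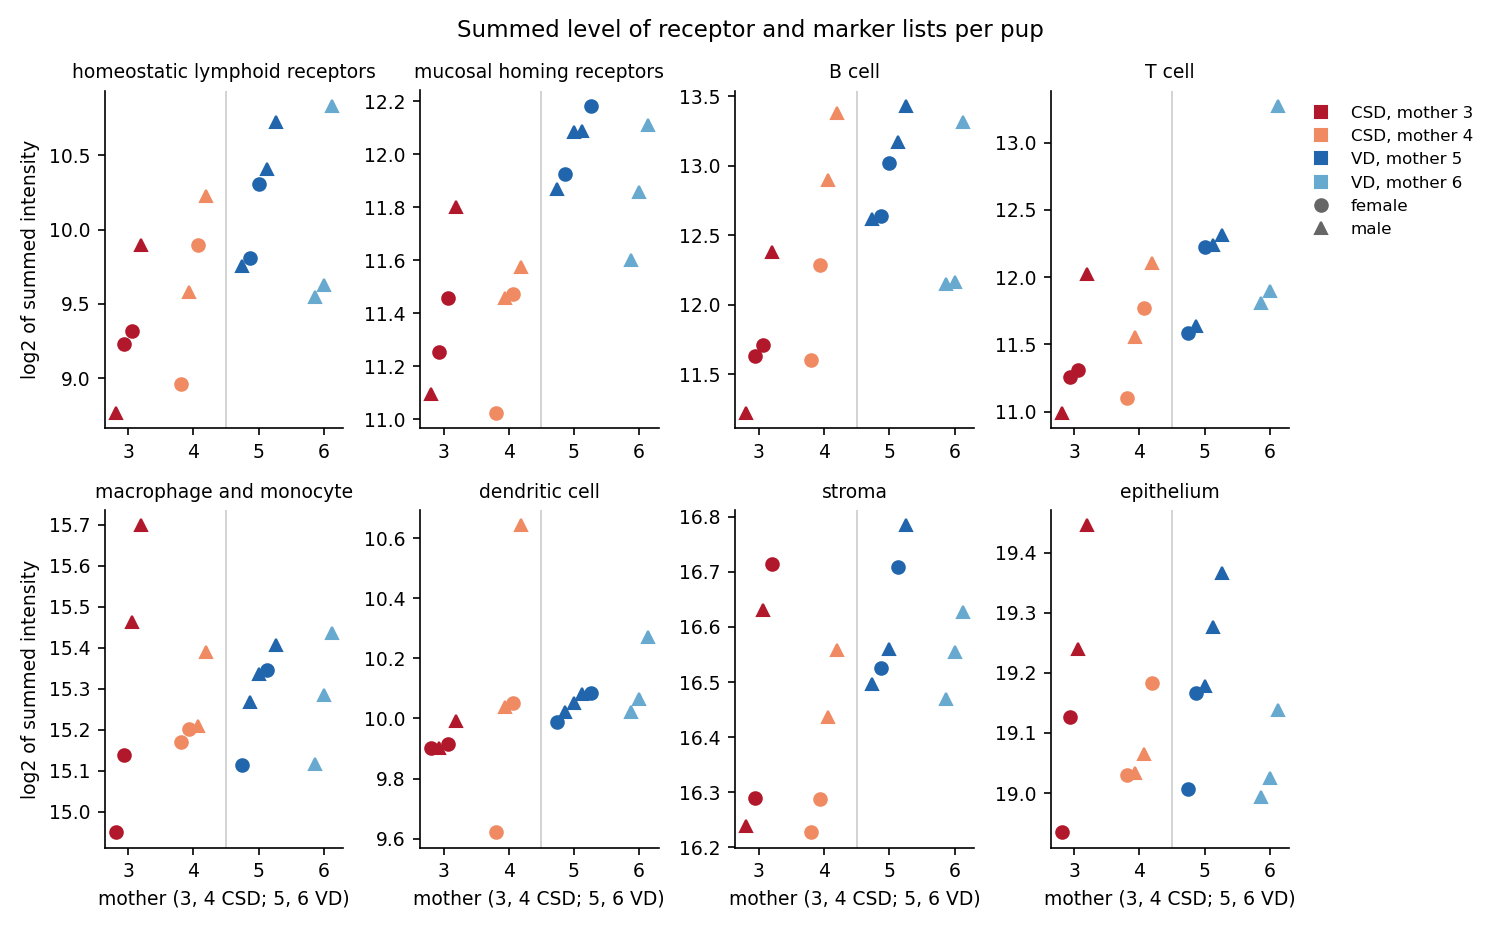
Summed level (y axis, log2 of the summed intensities) of the homeostatic lymphoid receptors, the mucosal homing receptors and 6 lists of cell type markers in each pup, by biological mother (x axis), with CSD litters in red tones, VD litters in blue tones, circles for females and triangles for males. The B cell and T cell sums are lowest in CSD pup 8, as is the sum of the homeostatic lymphoid receptors. Under every VD pup lie 7 CSD pups in the sum of the mucosal homing receptors and 5 in the T cell and in the stroma sum. There are 4 in the B cell, the dendritic cell and the homeostatic lymphoid receptor sum, and 1 in the macrophage and in the epithelium sum. The brightest genes weigh most in a sum.

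Lists for other cell types had medians nearer to 0, and no gene of theirs was called. Of 10 macrophage and monocyte markers 7 were lower (median -0.09), with the complement gene C1qc (-0.21 ± 0.07, adjusted p-value 0.143) and Cd68 (-0.26 ± 0.09, adjusted p-value 0.18) smallest in p and Ly6c2 the brightest at 14.46 in CSD and 14.40 in VD pups. Dendritic cell markers had a median of -0.09 (5 of 6 lower), and 3 were lower at an unadjusted p-value under 0.05, against 7.09% of all genes. Their sum was under every VD pup in 4 CSD pups and above every VD pup in 1. Fscn1 (-0.27 ± 0.08, adjusted p-value 0.12) and Itgax (-0.23 ± 0.08, adjusted p-value 0.149) were smallest in p, and Batf3 was the brightest at 8.41 and 8.26. Stromal markers had a median of -0.08 (5 of 7 lower), and their sum, from 16.23 to 16.71 (median 16.36) in CSD and from 16.47 to 16.78 (median 16.56) in VD pups, was under every VD pup in 5 CSD pups. Among them were Thy1, which T cells also carry, at -0.39 ± 0.10 (adjusted p-value 0.062), Pdgfrb at -0.15 ± 0.05 (adjusted p-value 0.189) and Dcn the brightest at 15.93 and 16.12. For endothelium and lymphatic vessel (6 of 8 lower, median -0.08) Cdh5 differed by -0.18 and Glycam1, a product of high endothelial venules, by -0.88 ± 0.44 (adjusted p-value 0.387), and Pdpn was the brightest at 11.45 and 11.56.

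Neutrophil markers (6 of 8 lower, median -0.05) were led by Mpo (-0.12) and Ly6g (0.13, the brightest at 11.74 and 11.67), and Ngp was not detected. Eosinophil markers (5 of 7 lower, median -0.02) were led by Ear1 (-0.23) and Prg2 (-0.33, detected on 4 CSD and 8 VD arrays), with Ear2 the brightest at 8.30 and 8.55, and Epx was not detected. Epithelial markers were higher in 6 of 8 (median 0.12), with Epcam at 0.17 ± 0.07 (adjusted p-value 0.257), Cdx2 at 0.33 ± 0.18 (adjusted p-value 0.437) and Krt8 the brightest at 17.85 and 17.93. Colon epithelial markers were higher in 6 of 9 (median 0.11), with the chloride transporter Slc26a3 at 0.45 ± 0.13 (adjusted p-value 0.113), Hoxd10 at -0.36 ± 0.18 (adjusted p-value 0.386) and Aqp8 the brightest at 16.44 and 16.33. Of 9 small intestinal markers 3 (Apoa4, Lct and Sis) were not detected, and Fabp2 differed by 0.63 ± 0.24 (adjusted p-value 0.207) and Lyz1, the brightest, by -0.34 ± 0.15 (adjusted p-value 0.31).

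Females and males were compared in the same fit. Of the 54 genes 0 were called by limma, against 0.0599% of all genes, and 6 had an unadjusted p-value under 0.05, against 6.45% of all genes. Ccl17, the ligand of Ccr4 made by dendritic cells, had the smallest p-value (0.46 ± 0.16 higher in females, adjusted p-value 0.676), and Ccl22, the next, was not detected. For the delivery by sex interaction 0 of the 54 were called, against 0.00272% of all genes, and 0 had an unadjusted p-value under 0.05, against 4.72%. Ccr10 had the smallest p-value (interaction -0.71 ± 0.37, adjusted p-value 0.981), followed by Ccr3 (-0.29 ± 0.15, adjusted p-value 0.981). With 2 VD females, both of mother 5, such a difference could be found only if large.

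Litters of 1 delivery mode were compared with each other as a measure of how much pups differ for other reasons. Between mothers 3 and 4 (CSD) 0 of the 54 genes were called by limma, against 0.0872% of all genes, and 6 had an unadjusted p-value under 0.05, against 7.68%. Ccl21a (-0.62 ± 0.18, mother 3 minus mother 4, adjusted p-value 0.347) and Ccl28 (-0.50 ± 0.15, adjusted p-value 0.349) had the smallest p-values, and the difference of Ccl21a was larger than that between delivery modes. Between mothers 5 and 6 (VD) 0 of the 54 were called, against 0.874% of all genes, and 5 had an unadjusted p-value under 0.05, against 11.5%. The smallest p-values were those of Cxcl17, which was not detected, and of Ccl20.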

How the data were processed

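Per the file headers, intensity values came from Agilent Feature Extraction, 1 file per array of 62976 spots, as deposited. The authors also deposited a matrix of log2 values of 27036 genes, whose processing notes name limma 3.38; it held 47 of the 54 genes and served as an alternative. The build of the probe positions was mm9. The kind of background correction behind the matrix is not given in the sources used here.

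From the mean signals, background was corrected with normexp (offset 50), control and outlier spots were removed, and log2 values were quantile normalized. Probes brighter than the 5% quantile on at least 4 arrays (56366 of 56605) were kept and averaged per gene (36711 genes, 218 with a missing value). Limma 3.58.1 in R 4.3.3 fitted delivery mode and sex with the mother as random block (consensus correlation 0.0152); p-values were Benjamini-Hochberg adjusted over all genes. Permutation tests of single genes enumerated all 12870 assignments of the pups (two-sided, smallest p 0.000155). The fit was tested on simulated data, where it made more false calls than nominal. The small number of arrays, and of litters (2 per mode), bounds the precision. The p-values measure the spread between pups. Named were called genes, those with an unadjusted p-value under 0.05 (at most 15), 13 principal ligands, and, in other contrasts and lists, called genes or else the 2 of smallest p, with the brightest gene. The members and gene lists were chosen with earlier results of these data known. Counts over genes detected on all arrays were added after seeing the data. Alternatives covered the background correction, scaling, filters, probe rule, covariates, slides, sexes and left-out pups and litters. The promoter windows are from RefSeq (GRCm38.p6). One gene of the rule is counted but not reported by name here.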

Additional observations from a re-analysis of the deposited data

Results flagged for a closer look

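In 74 groups of 8 pups, 1 per delivery mode for each of the 37 genes detected on all 16 arrays, 5 genes had a pup whose gap to the nearest other pup was a larger share of the group's range than Dixon's test allows at the 95% level. Chance alone flags about 1 in 20 groups. Ccl25 was 7.26 in VD pup 5, while the other VD pups lay between 6.78 and 6.96. Ccl28 was 10.41 in VD pup 7, against 9.78 to 10.04 in the other VD pups. Cx3cr1 was 9.65 in VD pup 9, against 9.98 to 10.15 in the other VD pups. CSD pup 2 was the low pup for both inflammatory ligands concerned. Its Ccl2 value was 7.99, against 8.66 to 9.04 in the other CSD pups, and its Cxcl10 value was 7.003, against 7.86 to 8.46.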

How the results depend on the processing

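The call of Ccr6 lay close to the threshold, and the number of genes called moved widely. Over all genes and over the 54 genes, 460 and 1 were called as reported. Calls numbered 1126 and 5 at an adjusted p-value under 0.1 (limma, as throughout), 243 and 0 with a normexp offset of 16, 102 and 0 with an offset of 0, 177 and 0 on processed signals with quantile normalization, 164 and 0 on processed signals scaled to the 75th percentile, 319 and 0 with probes well above background only, 170 and 0 in the deposited matrix, 587 and 2 without the mother, 992 and 5 without sex, 474 and 0 with slide as a fixed effect, 318 and 0 with a trended robust prior, 11 and 0 on slide 1, and 0 and 0 on slide 2, with males only and with litter means as samples (5307 and 15 at an unadjusted p-value under 0.05 as reported). With the replicate block, 0 and 0 were called and Ccr6 differed by -0.71 (adjusted p-value 0.248). Same-numbered pups had different mothers, so that the numbers do not pair them. Leaving out 1 pup or litter gave 138 to 2265 calls over all genes (lowest without the litter of mother 4, highest without that of mother 6) and 0 to 5 among the 54. Without the litter of mother 6, Ccl12, Ccl20, Ccr2, Ccr6 and Cxcr4 were called. Ccl12 was also called without CSD pup 8 or VD pup 8, Ccr10 without VD pup 9, and Ccr2 without VD pup 11. Of 910 alternative values of 24 named genes 28 changed sign, none of a called gene. Ccl25 turned to 0.0423 and 0.0847 on processed signals (quantile and percentile scaling), 0.0621 for the brightest probe, 0.000544 for litter means and 0.0187 for males. Cx3cl1 turned to 0.0014 with the stricter filter, 0.0039 in the deposited matrix and 0.0271 on slide 2, and Ccl11 to -0.0411 on slide 1. With pups or litters left out, Cxcl16 ranged from -0.28 to 0.0144, Ccl25 from -0.0918 to 0.0462, Ccl28 from -0.17 to 0.41, Cx3cl1 from -0.0987 to 0.0851, Ccl2 from -0.20 to 0.11 and Ccl11 from -0.0903 to 0.26. The cause was not tested. The median of the homeostatic lymphoid genes stayed between -0.80 and -0.24 in 28 alternatives. That of the mucosal homing receptors was -0.57 under both scalings of processed signals and -0.37 to -0.23 with pups or litters left out. For these lists, the slide and leave-out alternatives were chosen after seeing the data. Of 20 pairs 7 passed by r as reported, 2 within CSD pups, 4 within VD pups, 4 without the extreme pups, 6 with litter means subtracted (Ccl11 and Ccr3 among them, r = 0.60, adjusted permutation p = 0.0431), 7 on processed signals and 7 of the 18 pairs that the deposited matrix holds, adjusted over those 18. Differences of the 10 genes detected on only some arrays are limited by the background.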
